A study of Homo sapiens with 9 samples.

Results

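The genes described here encode the structural proteins of the extracellular matrix and the enzymes that cut it. They are the collagen chains (COL genes), the laminin chains (LAMA, LAMB and LAMC genes), the matrix metalloproteinases (MMPs) and the tissue inhibitors of metalloproteinases (TIMP1 to TIMP4). They were chosen by gene symbol alone, with no use of their levels, and number 82 of the 50868 genes in the deposited table. There were 44 collagen chains, 12 laminin chains, 22 MMPs and 4 TIMPs. Of the 82, 51 passed the filter on low counts and were tested, together with 16697 genes in all.

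The RNA came from xenografts: Huh-7 cells, an established line of human liver cancer (hepatocellular carcinoma), were implanted subcutaneously in NOD/SCID mice, a strain that lacks mature lymphocytes. The genotype field of every library reads WT. Adenovirus was injected into tumours of about 100 mm3 every 4 days over 8 days. Control tumours received a vector for green fluorescent protein (Ad-GFP). The others received unchanged HNF4A (Ad-HNF4A) or its K458R form, in which a lysine is replaced by arginine (Ad-K458R), and every group has 3 libraries. HNF4A is a nuclear receptor that directs the hepatocyte programme. The promoter of the vectors, and whether the 3 tumours of a group came from separate animals, are not stated in the labels, so the spread behind each p-value is that between libraries and may be technical.

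Library totals ranged from 15933702 to 23171796 counts. Levels are given in CPM, the count scaled to the library total with TMM correction. HNF4A itself averaged 168 ± 14.4 CPM in controls, 4194 ± 1035 with Ad-HNF4A and 5293 ± 263 with Ad-K458R (SD, n = 3). Hepatocyte markers were abundant in every library, at a summed 27656 to 32356 CPM for 8 genes. 1 library, Ad-HNF4A replicate 1, was remote from the rest along principal component 2 of the tested genes (12.7% of the variance), at 46.1 where the others lay between -11.2 and 4.12. For the matrix genes called with Ad-HNF4A, and for LAMB3, COL4A2 and COL6A2, results are given with and without it. Most other results are given with it only. In bulk tumours, fewer cells of a type and less RNA per cell cannot be told apart.

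Collagens form fibres (types I, II, III, V and XI), the basement membrane network (type IV), beaded filaments (type VI) and several linking or membrane-spanning structures. Laminins are cross-shaped trimers of an alpha, a beta and a gamma chain that, with type IV collagen, build the basement membrane on which epithelia rest. Epithelial cells are held to it by hemidesmosomes, in which the membrane collagen XVII and an integrin bind a laminin that holds the LAMA3 and LAMB3 chains, and anchoring fibrils of collagen VII tie that membrane to the tissue below. MMPs are zinc proteases that cut these proteins, either secreted or bound to the cell surface, and TIMPs block them. In the liver most fibrillar collagen is made by stellate cells and fibroblasts rather than hepatocytes, and its build-up is fibrosis.

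The sequences just upstream of 4 genes that were higher with both vectors are shown because a nuclear receptor such as HNF4A acts on DNA. Each line holds the 250 bases before the RefSeq start of the gene (build GRCh38.p14), 5′ to 3′ on the gene's strand. The positions are chr3:48595330-48595579 for COL7A1, chr10:104085881-104086130 for COL17A1, chr19:10010505-10010754 for COL5A3 and chr11:102625333-102625582 for MMP20, each on the minus strand. Capitals mark matches to the motifs described after the sequences.
COL7A1: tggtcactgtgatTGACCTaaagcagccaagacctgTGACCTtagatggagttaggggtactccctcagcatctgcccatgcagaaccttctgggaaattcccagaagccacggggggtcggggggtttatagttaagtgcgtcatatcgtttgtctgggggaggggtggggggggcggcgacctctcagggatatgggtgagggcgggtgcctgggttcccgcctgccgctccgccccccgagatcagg
COL17A1: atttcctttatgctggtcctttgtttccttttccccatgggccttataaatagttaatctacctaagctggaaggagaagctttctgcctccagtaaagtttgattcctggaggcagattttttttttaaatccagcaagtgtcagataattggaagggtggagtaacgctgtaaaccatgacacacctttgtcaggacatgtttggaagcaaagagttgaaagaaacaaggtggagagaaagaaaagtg
COL5A3: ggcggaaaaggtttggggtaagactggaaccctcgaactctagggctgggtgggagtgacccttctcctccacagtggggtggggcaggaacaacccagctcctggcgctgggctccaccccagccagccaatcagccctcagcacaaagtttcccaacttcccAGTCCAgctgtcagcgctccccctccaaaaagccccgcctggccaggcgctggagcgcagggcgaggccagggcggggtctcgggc
MMP20: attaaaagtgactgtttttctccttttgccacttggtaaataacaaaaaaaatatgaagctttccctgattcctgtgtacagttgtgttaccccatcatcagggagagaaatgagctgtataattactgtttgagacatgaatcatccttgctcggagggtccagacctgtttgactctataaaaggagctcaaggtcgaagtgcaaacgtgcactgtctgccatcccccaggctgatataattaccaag
In these genes the RefSeq start lay 62, 122, 33 and 0 bases from the start in the deposited table. The window of COL7A1 held AGGTCA, a core element of nuclear receptor sites, at 237 and 214 bases before the start, both on the opposite strand and so written TGACCT. That of COL5A3 held AGTCCA, the core of the HNF4A-type site, at 86 bases before the start. The windows of COL17A1 and MMP20 held neither. COL6A1, higher with both vectors as well, has no entry among the RefSeq promoters used here.

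RefSeq promoters were matched for 55 of the 82 genes, and both strands were searched. Some RefSeq starts lay far from the start in the deposited table, for example 302432 bases away in COL21A1 and 183577 in LAMA3. The full HNF4A motif spelled CAAAGTCCA, its variant CAAAGGTCA and the looser CAAAGNNCA, which contains both, were in 0 of the 55 windows. Over 35116 promoters of the same 250 bases the shares were 0.325%, 0.339% and 4.44%. The cores AGGTCA and AGTCCA, contained in CAAAGGTCA and CAAAGTCCA, were each in 4 of the 55, against 12.1% and 9.63% of all promoters. The AGGTCA matches were in COL7A1, LAMA2, MMP15 and TIMP4, and the AGTCCA matches in COL4A5, COL5A3, COL6A3 and LAMC1. The letters describe these windows only, and binding was not measured.

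Against Ad-GFP, 6 of the 51 tested matrix genes were higher with Ad-HNF4A and 0 were lower, by edgeR's quasi-likelihood test at an adjusted p under 0.05. The 6 were COL7A1, COL17A1, COL5A3, COL6A1, COL26A1 and MMP20. Of all tested genes, 3.16% were higher and 0.305% lower in that comparison. With Ad-K458R, 7 were higher and 0 lower, where 3.32% of all tested genes were higher and 0.234% lower. These were COL7A1, COL17A1, COL5A3, COL6A1, MMP20, COL16A1 and LAMB3. Both comparisons use the same 3 Ad-GFP libraries, and the 5 genes called in both are therefore not called on independent controls. At an unadjusted p under 0.05 the matrix genes numbered 19 of 51 with Ad-HNF4A, where 16.6% of all tested genes did so, and 14 with Ad-K458R, where 14% did. With Ad-HNF4A, 14 matrix genes were higher and 3 lower in every library than in any control, against 12.2% and 9.16% of all tested genes. With Ad-K458R these were 15 and 3, against 13.2% and 10.6%, so single genes whose groups do not overlap are common in these data.

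**Figure D1:**
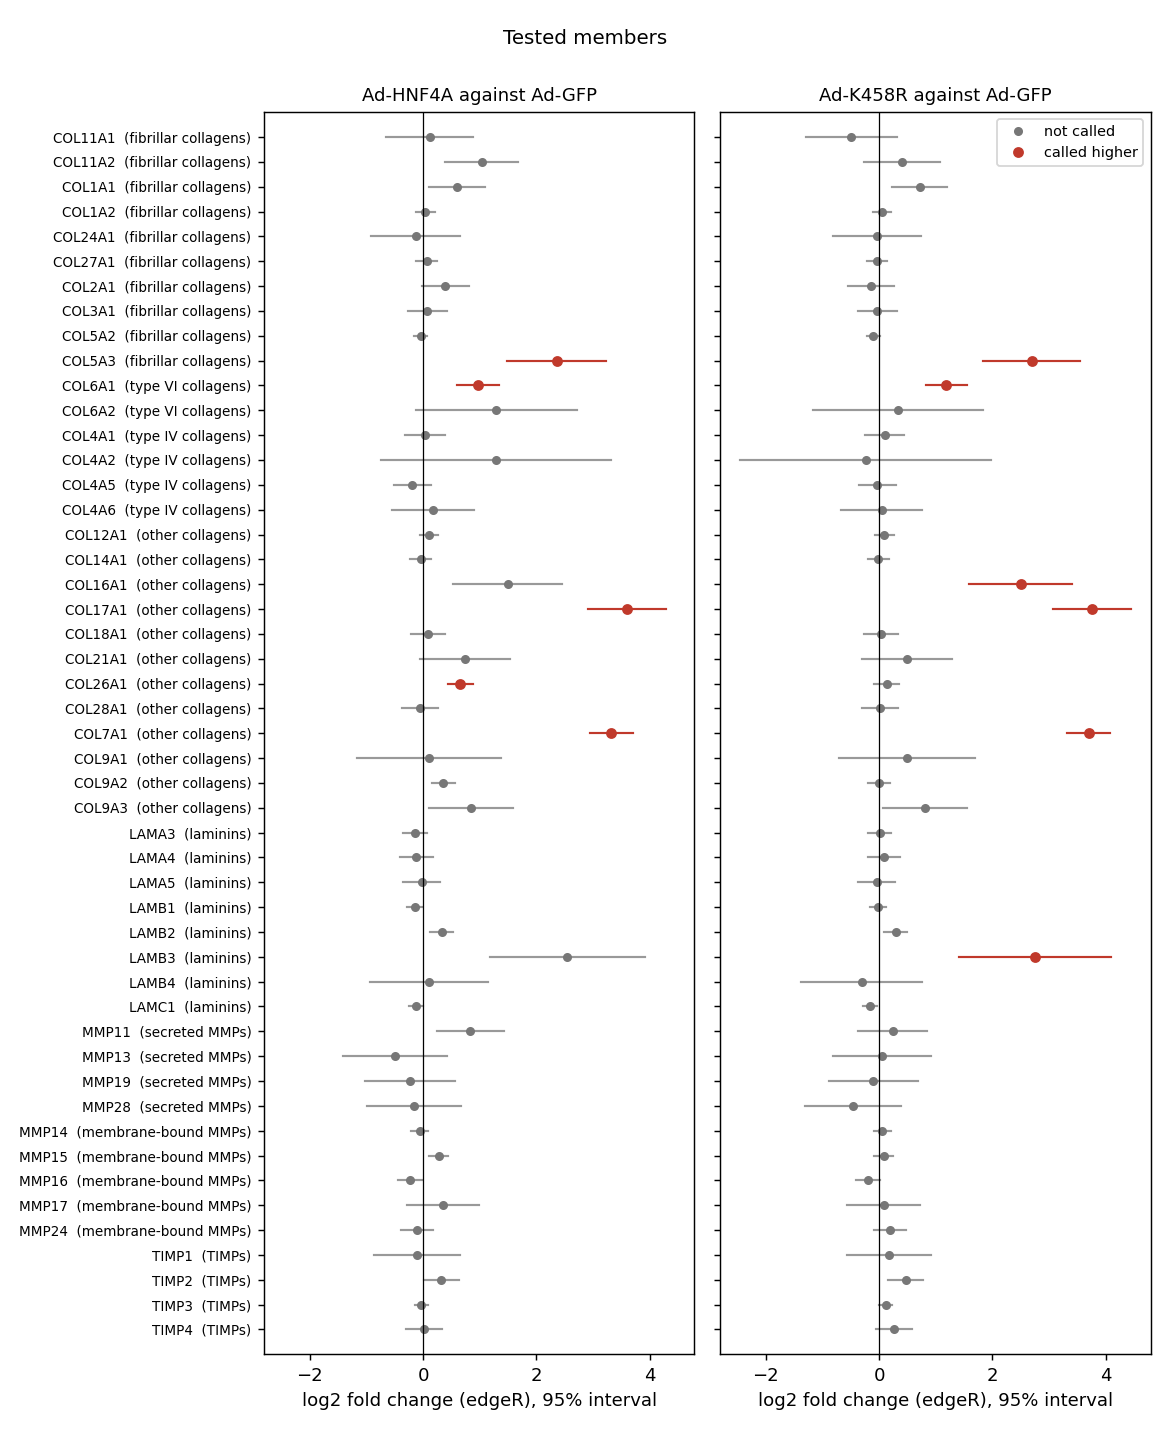
Log2 fold change against Ad-GFP with its 95% interval (x axis, edgeR) for the tested collagens, laminins, MMPs and TIMPs, without MMP20, which had no count in Ad-GFP, and 1 gene not reported here. Genes in rows are grouped by role; red marks an adjusted p under 0.05, seen for 5 genes with Ad-HNF4A and 6 with Ad-K458R, and most of the others lie near 0.

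The called genes were mostly near the detection limit in the control tumours. The filter asked for about 0.54 CPM in 3 libraries, and 10 of the 51 tested genes did not reach that level in every Ad-GFP library. Of these 10, 5 were called in at least 1 comparison with Ad-GFP: COL17A1, COL5A3, COL16A1, LAMB3 and MMP20. Entry into the test through the level in a treated group favours a difference without forcing it, so the share called is not read against the background. Among the 41 genes at the filter level in all 3 Ad-GFP libraries, 3 were called in at least 1 comparison (COL7A1, COL6A1 and COL26A1). The like share over all tested genes was not counted, so these 3 are not read against a background. The median log2 fold change of the 51 was 0.10 with Ad-HNF4A and 0.08 with Ad-K458R, where all tested genes had medians of 0.0058 and -0.0041. Values above 0 were found for 32 and 34 of the 51 (62.7% and 66.7%), and for 51.1% and 49.1% of all tested genes. The 51 include genes that entered through a treated group, so these medians and shares are not read against the background either.

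Collagen VII, the protein of anchoring fibrils, showed the smallest p of all the matrix genes. COL7A1 (ENSG00000114270, chromosome 3, 48564073 to 48595267, minus strand) stood at 1.06, 1.47 and 0.917 CPM in the Ad-GFP libraries. With Ad-HNF4A it stood at 11.9, 10.7 and 11.8 CPM, and with Ad-K458R at 13.8, 14.5 and 16.4 CPM. The 6 libraries of the vectors thus lay far above the 3 controls, and each Ad-K458R library lay above each Ad-HNF4A library. The log2 fold change was 3.32 ± 0.17 with Ad-HNF4A (SE, adjusted p = 2.7e-06, edgeR) and 3.70 ± 0.17 with Ad-K458R (adjusted p = 9.9e-07). It was called in each of the 17 and 18 alternative analyses of the 2 comparisons.

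Collagen XVII, the membrane-spanning collagen of hemidesmosomes, moved by a similar factor. COL17A1 (ENSG00000065618, chromosome 10, 104031286 to 104086002, minus strand) stood at 0.397, 0.706 and 0.483 CPM with Ad-GFP. It reached 6.44, 4.12 and 8.52 CPM with Ad-HNF4A and 6.48, 7.75 and 7.19 CPM with Ad-K458R. No library of either vector overlapped the controls, and the Ad-HNF4A libraries spread around those of Ad-K458R. The log2 fold changes (± SE) came to 3.60 ± 0.31 for Ad-HNF4A and 3.76 ± 0.31 for Ad-K458R, at adjusted p = 0.00011 and 4.9e-05 by edgeR, again called in all 17 and 18 alternatives.

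Partners of these collagens at the same structure gave mixed results. LAMB3 (chromosome 1, 209614870 to 209652466), the beta chain of the laminin that hemidesmosomes bind, stood at 0.397, 0.163 and 0.145 CPM with Ad-GFP. The Ad-HNF4A libraries gave 2.81, 0.985 and 0.605 CPM, replicate 1 being the highest of all 9, and the Ad-K458R libraries 1.81, 1.67 and 1.5 CPM. No vector library overlapped the controls. With Ad-K458R the log2 fold change was 2.75 ± 0.61 (SE, adjusted p = 0.032, edgeR), and the call was lost without any 1 of the 6 libraries (adjusted p = 0.052 to 0.14) and in both FPKM tests (0.16 and 0.056). With Ad-HNF4A it was 2.55 ± 0.62 and did not pass (adjusted p = 0.053), and without Ad-HNF4A replicate 1 it was 1.68 (adjusted p = 0.12).

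LAMA3, the alpha chain of that laminin, was not called. LAMA3 stood at 29.5 ± 2.58 CPM with Ad-GFP, 26.9 ± 2.55 with Ad-HNF4A and 29.7 ± 0.386 with Ad-K458R (SD, n = 3).

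Integrins are the cell's side of the attachment, and were taken from a list of matrix receptors. ITGA3, the alpha chain of a laminin-binding integrin, stood at 3.0, 3.37 and 3.86 CPM with Ad-GFP, 16.6, 10.2 and 13.6 CPM with Ad-HNF4A and 16.1, 11.6 and 13.0 CPM with Ad-K458R. Its log2 fold changes (± SE) came to 1.98 ± 0.20 for Ad-HNF4A and 1.99 ± 0.20 for Ad-K458R, at adjusted p = 0.00029 and 0.00019 by edgeR. ITGB4, the beta chain of the hemidesmosome integrin, was at 1.46 ± 0.284, 2.54 ± 0.252 and 2.41 ± 0.344 CPM (SD, n = 3) and was not called (adjusted p = 0.089 and 0.13). Its partner ITGA6, abundant throughout, was at 133 ± 8.18, 149 ± 6.78 and 164 ± 6.24 CPM, and was higher with Ad-K458R by 0.30 ± 0.06 on the log2 scale (adjusted p = 0.027) but not with Ad-HNF4A (adjusted p = 0.24).

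**Figure D2:**
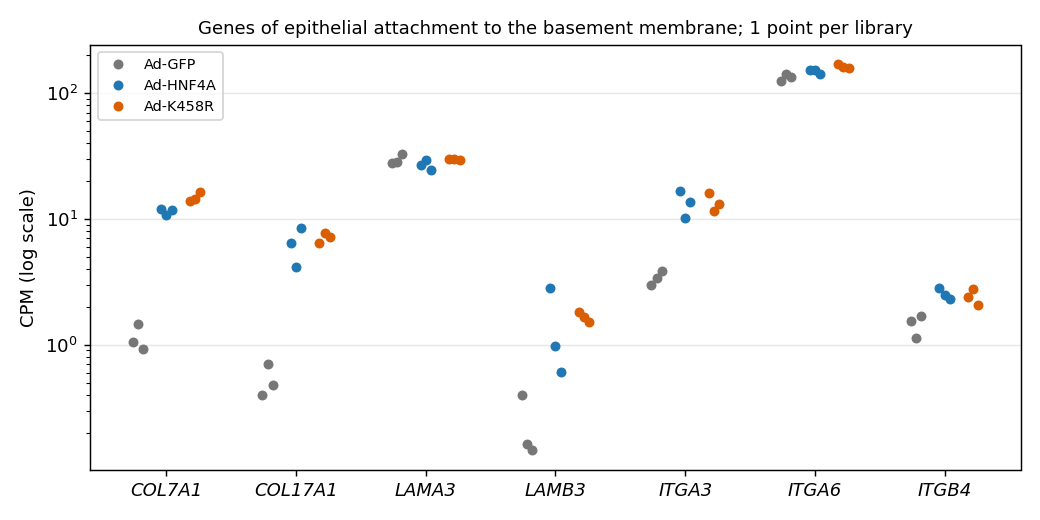
Level in CPM (log y axis) of genes of epithelial attachment, 1 point per library, with Ad-GFP in grey, Ad-HNF4A in blue and Ad-K458R in orange. The vector libraries of COL7A1, COL17A1, LAMB3, ITGA3 and ITGB4 lie above the controls without overlap, as do those of ITGA6 with Ad-K458R. ITGB4 was not called with either vector, nor LAMB3 with Ad-HNF4A. LAMA3 lies in 1 band in the 3 groups.

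Of the remaining laminins none was called. LAMB1, the most abundant laminin chain, stood at 1089 ± 50.8, 985 ± 62.3 and 1073 ± 42.3 CPM (SD, n = 3) with Ad-GFP, Ad-HNF4A and Ad-K458R. Its usual gamma partner LAMC1 was at 435 ± 16.5, 398 ± 19.9 and 388 ± 10 CPM, with every vector library below every control but log2 changes of -0.13 and -0.17 that did not pass the test (adjusted p = 0.28 and 0.18, edgeR). LAMB2, the other beta chain, went the opposite way, at 143, 126 and 141 CPM with Ad-GFP, 198, 167 and 152 with Ad-HNF4A and 162, 174 and 167 with Ad-K458R. Every vector library of LAMB2 exceeded every control, and the test was not passed (log2 change 0.33, adjusted p = 0.086, and 0.29, adjusted p = 0.15). The alpha chains LAMA4 and LAMA5 had log2 changes between -0.12 and 0.08, and LAMB4 stayed below 1.11 CPM in each library.

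Among fibrillar collagens 1 of 10 tested genes was called, COL5A3, a minor chain of the type V collagen that regulates fibre width. COL5A3 (ENSG00000080573, chromosome 19, 9959561 to 10010471, minus strand) stood at 0.265, 0.489 and 0.290 CPM with Ad-GFP. It stood at 1.69, 1.04 and 2.57 CPM with Ad-HNF4A and at 2.09, 2.12 and 2.56 CPM with Ad-K458R, with no overlap with the controls. The log2 fold changes (± SE) came to 2.36 ± 0.40 for Ad-HNF4A and 2.70 ± 0.39 for Ad-K458R, at adjusted p = 0.0076 and 0.0023 by edgeR. Its sister chain COL5A2 was far more abundant and was not called, at 842 ± 29.5, 816 ± 35.0 and 782 ± 12.6 CPM (SD, n = 3).

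COL2A1, the main cartilage collagen, was the most abundant collagen in these tumours. It stood at 1229, 1250 and 1296 CPM with Ad-GFP, 1448, 1335 and 2175 with Ad-HNF4A and 1116, 1274 and 1023 with Ad-K458R. Its Ad-HNF4A libraries, replicate 3 above all, were higher than the rest, but neither the difference from Ad-GFP (log2 change 0.39, adjusted p = 0.32, edgeR) nor that between the vectors (-0.54, adjusted p = 0.50) passed. The type I chains were low in COL1A1, at 2.88 ± 0.175, 4.37 ± 1.12 and 4.74 ± 0.963 CPM, and steadier in COL1A2, at 41.6 ± 2.09, 42.9 ± 2.44 and 43.2 ± 1.26 CPM. Type I collagen protein holds 2 chains of COL1A1 to 1 of COL1A2, whereas in the deposited FPKM (reads scaled to gene length and library size) COL1A2 exceeded COL1A1 by 5.68 to 12.4 times over the 9 libraries. COL3A1, COL27A1, COL24A1, COL11A1 and COL11A2 were not called, with log2 changes from -0.49 (COL11A1, Ad-K458R) to 1.03 (COL11A2, Ad-HNF4A).

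Type VI collagen forms beaded filaments around cells, and its first chain was called in both comparisons. COL6A1 (ENSG00000142156, chromosome 21, 45981737 to 46005050, plus strand) stood at 13.8, 10.5 and 10.4 CPM with Ad-GFP, 22.7, 17.6 and 28.1 with Ad-HNF4A and 26.1, 27.9 and 25.2 with Ad-K458R. The lowest vector library, Ad-HNF4A replicate 2, was above the highest control. The log2 fold changes (± SE) came to 0.98 ± 0.17 for Ad-HNF4A and 1.19 ± 0.17 for Ad-K458R, at adjusted p = 0.0086 and 0.0021 by edgeR, and the first rose to an adjusted p of 0.05, just under the threshold before rounding, without Ad-GFP replicate 2. COL6A2, the chain that pairs with COL6A1 in the protein, stayed between 0.50 and 0.933 CPM in all libraries other than Ad-HNF4A replicate 1 (3.38 CPM) and was not called. COL6A3, the third chain, was too low to be tested, at up to 0.655 CPM.

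Of the type IV chains of the basement membrane, 4 were tested and none was called. COL4A1 stood at 8.76 ± 0.711, 8.99 ± 1.78 and 9.36 ± 0.813 CPM (SD, n = 3), COL4A5 at 29.3 ± 2.43, 25.8 ± 5.80 and 28.6 ± 2.18, and COL4A6 at 2.70 ± 0.746, 3.09 ± 1.28 and 2.81 ± 0.448. COL4A1 and COL4A2 chains join in 1 protein and share a promoter, being read in opposite directions with gene spans that overlap at their starts. Per length, by deposited FPKM, COL4A1 exceeded COL4A2 by 8.68 to 19.8 times in 8 libraries and by 2.11 times in Ad-HNF4A replicate 1.

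Among the other collagens, COL26A1 and COL16A1 differed in the pattern over the groups. COL26A1 (chromosome 7, 101362820 to 101559024), which encodes a little-studied secreted collagen, stood at 14.3, 11.9 and 12.5 CPM with Ad-GFP, 20.6, 19.0 and 21.5 with Ad-HNF4A and 14.1, 14.2 and 14.1 with Ad-K458R. The Ad-HNF4A libraries were higher than all 6 others, and those of Ad-K458R lay within the range of the controls. The log2 fold change was 0.66 ± 0.10 with Ad-HNF4A (SE, adjusted p = 0.0043, edgeR), called in all 17 alternatives, and 0.13 ± 0.10 with Ad-K458R (adjusted p = 0.64). COL16A1 (chromosome 1, 31652247 to 31704319), a collagen that sits on the surface of fibres, stood at 0.309, 0.706 and 0.579 CPM with Ad-GFP, 1.06, 0.870 and 2.47 with Ad-HNF4A and 3.13, 3.16 and 2.67 with Ad-K458R. The 3 groups did not overlap, and the log2 fold change was 1.5 ± 0.44 under Ad-HNF4A and 2.5 ± 0.41 under Ad-K458R, at adjusted p = 0.10 and 0.0055.

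COL12A1 and COL14A1, collagens of the same fibre-associated class as COL16A1, were abundant and level. COL12A1 stood at 127 ± 13.5, 137 ± 5.85 and 136 ± 0.623 CPM and COL14A1 at 128 ± 12.6, 124 ± 6.46 and 126 ± 9.34 CPM (SD, n = 3). COL18A1, the basement membrane collagen that yields endostatin, stood at 106 ± 3.35, 112 ± 25.3 and 108 ± 6.55 CPM. None of them was called. COL9A2, a cartilage collagen chain, was higher in each Ad-HNF4A library (66.7, 51.8 and 63.2 CPM) than in any Ad-GFP library (at most 48.2 CPM), with an adjusted p of 0.062 (edgeR).

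**Figure D3:**
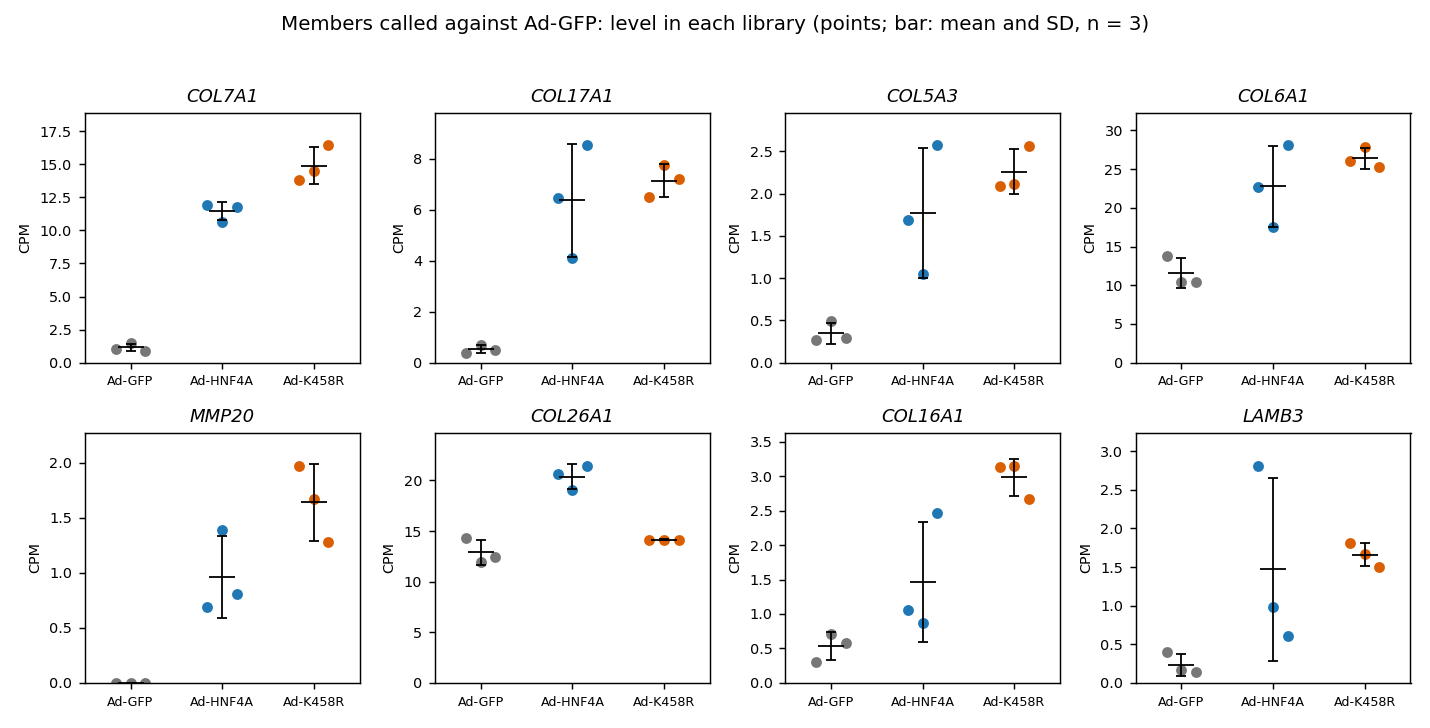
Level in CPM (y axis, from 0) of the 8 genes called against Ad-GFP in either comparison, with 1 point per library and a bar for the mean and SD (n = 3). All 8 have higher means with both vectors; for COL26A1 the Ad-K458R points (14.1 to 14.2 CPM) lie among the controls, and for LAMB3 Ad-HNF4A replicate 1 (2.81 CPM) lies above the rest.

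Of the matrix-cutting enzymes, 10 of 22 MMPs were tested and MMP20 was the 1 called. MMP20 (ENSG00000137674, chromosome 11, 102576835 to 102625332, minus strand) is enamelysin, a secreted protease known from developing tooth enamel. It had 0 counts in the 3 Ad-GFP libraries. It stood at 0.688, 1.39 and 0.806 CPM with Ad-HNF4A and at 1.98, 1.67 and 1.28 CPM with Ad-K458R, from 51 and 96 counts in all. Against a floor of 3 counts over the control group (0.0486 CPM), the means were at least 19.8-fold and at least 33.8-fold higher, with adjusted p = 0.0021 and 0.00054 (edgeR). The level itself remained low, under 2 CPM in every library.

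The remaining MMPs were not called with all libraries. MMP14, the membrane-bound protease that activates other MMPs, stood at 230 ± 14.8, 221 ± 15.9 and 239 ± 6.34 CPM (SD, n = 3). MMP15, also membrane-bound, stood at 114, 108 and 114 CPM with Ad-GFP, 147, 129 and 130 with Ad-HNF4A and 117, 130 and 110 with Ad-K458R. Its Ad-HNF4A libraries were above the controls, without passing the test (log2 change 0.27, adjusted p = 0.088, edgeR). MMP16, of the same class, was lower in every vector library than in any control, though by as little as 31.03 against 31.04 CPM, at 32.8 ± 2.22, 28.1 ± 2.40 and 28.6 ± 2.21 CPM (adjusted p = 0.27 and 0.38). Of the secreted enzymes, MMP11 stood at 5.10 ± 2.02, 9.18 ± 2.03 and 6.05 ± 1.09 CPM and MMP19 at 1.83 ± 0.521, 1.56 ± 0.702 and 1.71 ± 0.389 CPM. Without Ad-GFP replicate 1, the highest control at 7.42 CPM, MMP11 was called with Ad-HNF4A (log2 change 1.21, adjusted p = 0.026, edgeR), against 0.84 and 0.15 with all libraries. That was the 1 alternative of 17 that called it. MMP2 and MMP9, the gelatinases, and MMP1, the interstitial collagenase, were below 1 CPM in every library and were not tested.

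The 4 inhibitors were tested and none was called. TIMP3, which is bound to the matrix, was the most abundant at 138 ± 2.74, 136 ± 4.54 and 150 ± 2.71 CPM (SD, n = 3). TIMP2, which also helps MMP14 to activate MMP2, stood at 22.6, 25.5 and 34.6 CPM with Ad-GFP, 37.9, 34.7 and 31.1 with Ad-HNF4A and 38.5, 37.6 and 38.7 with Ad-K458R. The Ad-GFP libraries of TIMP2 were uneven, and without replicate 3, the highest, TIMP2 was called in both comparisons (adjusted p = 0.036 and 0.0084, edgeR), against 0.28 and 0.12 with all libraries. That was the 1 alternative of 17 and of 18 that called it, and it leaves out the control nearest to the vector libraries. TIMP4 stood at 20.1 ± 2.06, 20.4 ± 4.24 and 24.2 ± 1.67 CPM and TIMP1 at 2.5 ± 0.42, 2.34 ± 0.959 and 2.83 ± 1.07 CPM. The Ad-K458R libraries of TIMP2, TIMP3 and TIMP4 were above every control library, with log2 changes of 0.47, 0.12 and 0.27 that did not pass the test, and 13.2% of all tested genes showed the same separation.

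TIMP1, TIMP3 and TIMP4 lie within the synapsin genes SYN1, SYN3 and SYN2 on the opposite strand. The synapsins had 6, 214 and 77 counts over the 9 libraries, against 434, 24512 and 3733 for the TIMPs. Strand-keeping library preparation is not mentioned in the labels, so reads of overlapping genes on opposite strands cannot be told apart. The called gene MMP20 overlaps AP000851.1 in this way, with 147 counts against 20. MMP19 had 291 counts against 1205 for TMEM198B, and MMP11 had 1166 against 1191 for CHCHD10. MMP28 had 138 counts against 14432 for TAF15, and COL9A3 had 330 against 913 for TCFL5. The limit also touches MMP24 (with MMP24OS), LAMA5 (with ADRM1), COL18A1 (with SLC19A1), LAMB1 (with DLD) and the starts of COL4A1 and COL4A2.

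Levels of different genes were compared per length, by the deposited FPKM. The highest mean over the 9 libraries was that of COL2A1 at 163 FPKM, followed by LAMB1 at 85.6, COL5A2 at 84.6, LAMC1 at 42.3 and MMP14 at 38.2. TIMP3 (30.7), MMP15 (26.6), LAMA5 (21.3), TIMP4 (13.1) and LAMB2 (11.6 FPKM) completed the first 10. LAMB1 and COL5A2 overlapped in FPKM, with libraries from 74.9 to 92.6 and from 80.9 to 90.3, but their order depends on the length used: per kb of longest transcript LAMB1 was at 182 and COL5A2 at 115 CPM, and per kb of summed exons at 129 and 109 CPM. LAMC1 (39.3 to 46.7) and MMP14 (33.9 to 41.2 FPKM) overlapped as well, and MMP14 stood above LAMC1 with either of these other lengths. The 10 thus held basement membrane laminin chains, proteases and inhibitors beside 2 fibrillar collagens, and none of the genes called against Ad-GFP. The length behind the FPKM was within 1% of the summed GENCODE 29 exons for 7 of the 82 genes, but with that length, or with the longest transcript, 9 of the 10 stayed among the first 10. The ratio of LAMB1 to LAMB2 was 8.47 to 9.19 in the controls, 5.79 to 6.79 under Ad-HNF4A and 6.82 to 7.49 under Ad-K458R, with no overlap between the controls and either vector. Neither gene was called, the ratio was not tested, and how often ratios of other gene pairs separate in this way was not counted.

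**Figure D4:**
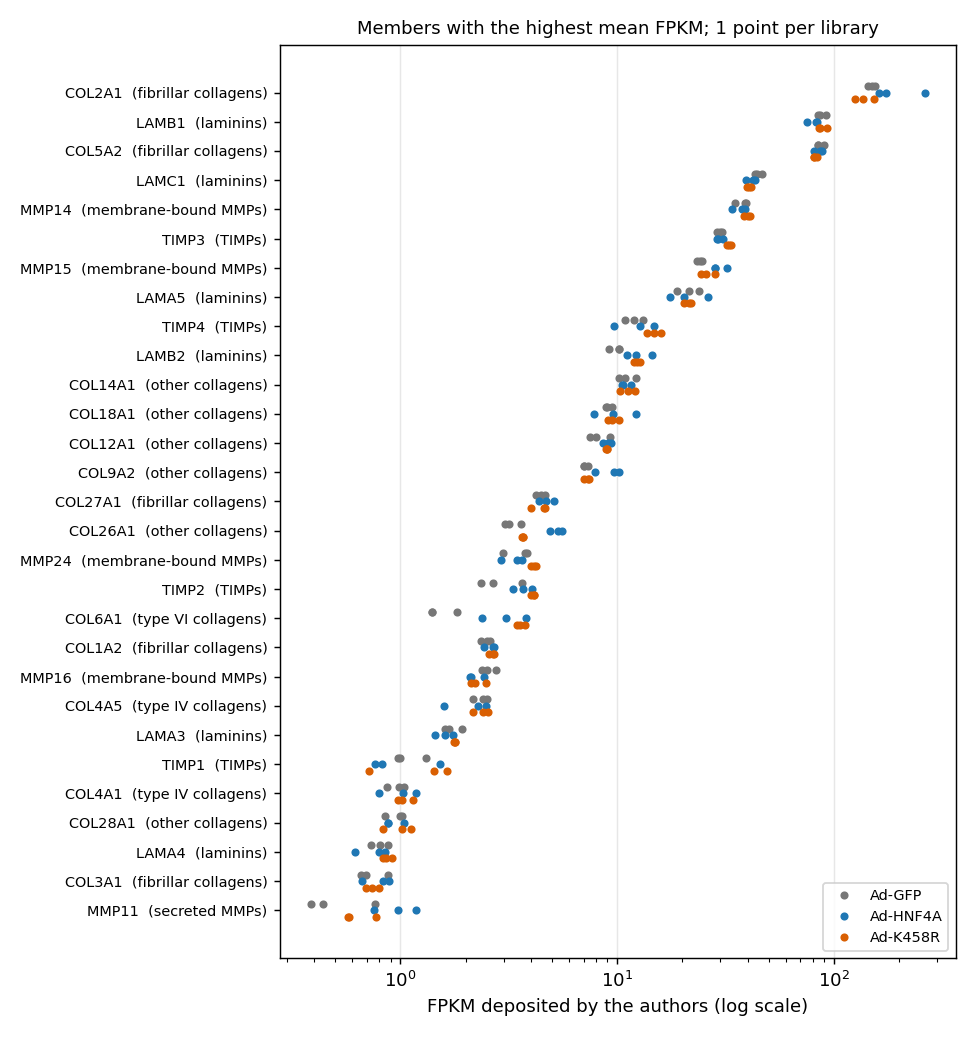
Deposited FPKM (log x axis) of the matrix genes with the highest means, 1 point per library, rows ordered by mean and labelled with their role. COL2A1 is highest at a mean of 163 FPKM, and COL26A1 and COL6A1 are the 2 genes among them that were called against Ad-GFP.

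The 31 genes that were not tested included 30 below 1 CPM in every library, 6 of them without a count (COL13A1, COL22A1, COL23A1, COL6A6, MMP26 and MMP27). The exception was COL5A1, the main chain of type V collagen, at 2.94 CPM in Ad-HNF4A replicate 1 and at most 0.232 CPM elsewhere. The same library stood out for 2 tested genes: COL4A2 was at 5.50 CPM there and at most 1.10 CPM elsewhere, and COL6A2 at 3.38 against at most 0.933 CPM. FBLN2, a matrix glycoprotein taken from a related list, was at 1.81 against at most 0.279 CPM. These genes were chosen for display after their values were seen. COL4A1 and COL6A1, the partners of COL4A2 and COL6A2, were not high in that library alone (10.6 and 22.7 CPM).

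**Figure D5:**
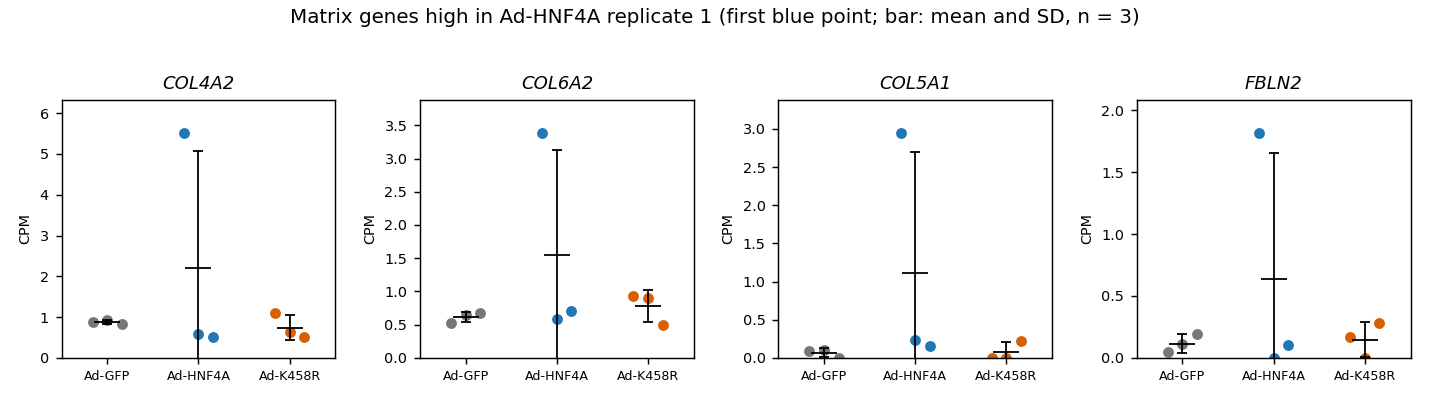
Level in CPM (y axis, from 0) of COL4A2, COL6A2, COL5A1 and FBLN2, with 1 point per library and a bar for the mean and SD (n = 3, cut at 0). The first Ad-HNF4A point, replicate 1, stands at 5.50, 3.38, 2.94 and 1.81 CPM, above all other libraries.

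Without Ad-HNF4A replicate 1 the 6 genes called with Ad-HNF4A were called again, with adjusted p from 2.5e-05 (COL7A1) to 0.034 (COL6A1, edgeR). The log2 change of COL4A2 then went from 1.29 to -0.69, and that of COL6A2 from 1.30 to 0.06, neither of them called with or without it. Leaving that library out of the shared estimate of spread left the 7 calls of Ad-K458R in place and added LAMB2.

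The vectors were then compared with each other. HNF4A mRNA itself was at 3695, 3503 and 5384 CPM in the Ad-HNF4A libraries and at 5405, 4992 and 5482 CPM in those of Ad-K458R (log2 difference 0.34, adjusted p = 0.59, edgeR), so the form of HNF4A and its level cannot be told apart in this contrast. None of the 51 was called in either direction by edgeR, where 0.00599% of all tested genes, that is 1 gene each, were higher and lower. An unadjusted p under 0.05 was found for 10 of the 51 and for 8.74% of all tested genes, and limma-voom called none of the 51. In 7 of the 51 every Ad-K458R library was above every Ad-HNF4A library and in 4 every one was below, against 7.5% and 6.85% of all tested genes. COL26A1 had the smallest p, with a log2 difference (Ad-K458R minus Ad-HNF4A) of -0.53 and a 95% interval of -0.75 to -0.30 (adjusted p = 0.23), and DESeq2 called it (adjusted p = 0.016). COL9A2 differed by -0.36 (-0.56 to -0.16, adjusted p = 0.33).

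For the genes called with both vectors the differences were small or loosely bounded. COL7A1 differed by 0.38 (0.07 to 0.69) on the log2 scale, and each Ad-K458R library was above each of Ad-HNF4A. COL17A1 differed by 0.16 (-0.37 to 0.69), COL5A3 by 0.34 (-0.37 to 1.04) and COL6A1 by 0.21 (-0.15 to 0.57). MMP20 differed by 0.77 (-0.04 to 1.58) and COL16A1, called with Ad-K458R only, by 1.0 (0.19 to 1.81, adjusted p = 0.51). The intervals of COL17A1, COL5A3, COL6A1 and MMP20 include 0, which does not show that the vectors act alike on these genes. Among the genes called against Ad-GFP with either vector, the interval was widest for LAMB3, at -0.88 to 1.29.

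Related genes were counted in 4 lists. Among all tested genes, 3.16% were higher with Ad-HNF4A and 3.32% with Ad-K458R, and 0.305% and 0.234% were lower. Of the enzymes that modify and cross-link collagen, 27 were tested and 1 (3.7%) was higher in each comparison with Ad-GFP, near those shares. It was the cross-linking enzyme LOXL1. LOXL1 had 2 counts in all Ad-GFP libraries, 60 with Ad-HNF4A and 94 with Ad-K458R, which gives ratios of 34.9 (95% interval 9.25 to 295) and 49.8 (13.4 to 417), counting error only, with adjusted p = 0.0031 and 0.00091 (edgeR). Both control counts were in Ad-GFP replicate 1. Without that library the control was at 0, and the fitted log2 fold changes went from 4.89 to 7.44 and from 5.39 to 7.93, values that depend on the prior count (adjusted p = 0.0076 and 0.0031). LOX, the first of that family, was level at 122, 124 and 112 CPM. Of 22 tested matrix glycoproteins and proteoglycans, 0 were called in either comparison (4 and 1 at an unadjusted p under 0.05), including FN1, fibronectin, at 9652 ± 563, 8755 ± 386 and 9171 ± 122 CPM (SD, n = 3).

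Of 22 tested matrix receptors, 3 were higher with Ad-HNF4A (ITGA3, ITGA7 and BCAM) and 4 with Ad-K458R (these and ITGA6), and 0 were lower. ITGA7, another laminin-binding integrin chain, stood at 1.98 ± 0.311, 3.81 ± 0.942 and 5.29 ± 0.815 CPM (SD, n = 3). Its adjusted p was 0.048 with Ad-HNF4A, where 5 of 17 alternatives called it, and 0.0042 with Ad-K458R, where all 18 did (edgeR). BCAM, a laminin receptor that binds LAMA5, stood at 121 ± 6.87, 164 ± 22.3 and 158 ± 11.3 CPM, with adjusted p = 0.028 and 0.049 (edgeR), and was called in 11 of 17 and 7 of 18 alternatives. ITGA6 with Ad-K458R was called in 12 of 18. The Ad-HNF4A calls of ITGA7 and BCAM were lost without Ad-HNF4A replicate 1 or 3, and without any 1 Ad-GFP library.

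Of 20 tested other proteases and their regulators, 2 were higher (CTSB and PLG) and 1 lower (ADAM9) with Ad-HNF4A, and 2 were higher (CTSB and SERPINE2) with Ad-K458R. CTSB, the lysosomal protease cathepsin B, rose from 204 ± 3.17 to 278 ± 11.4 and 297 ± 13.7 CPM (SD, n = 3), called in all 17 and 18 alternatives. PLG, the plasmin precursor made by hepatocytes, rose from 7.09 ± 0.263 to 13.8 ± 4.46 CPM with Ad-HNF4A, and its 12.0 ± 0.155 CPM with Ad-K458R did not pass (adjusted p = 0.058, edgeR). ADAM9, a membrane protease, fell from 459 ± 13.1 to 362 ± 43.3 CPM with Ad-HNF4A, and SERPINE2, an inhibitor of serine proteases, rose from 55.3 ± 3.07 to 76.4 ± 6.41 CPM with Ad-K458R. The calls of PLG, ADAM9 and SERPINE2 held in 12 of 17, 9 of 17 and 10 of 18 alternatives. That of ADAM9 was lost without Ad-HNF4A replicate 1 or 3, and without any 1 Ad-GFP library.

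Markers of other cell types were read beside these genes, since collagens are also made by the tumour's stroma, here that of the mouse host. The table lists human genes, and the treatment of mouse reads is not stated in the labels. Human expression and mouse reads assigned to human genes therefore cannot be told apart in these markers. The 12 fibroblast markers summed to 82.1 to 109 CPM in the controls, 65.8 to 110 under Ad-HNF4A and 91.1 to 107 under Ad-K458R, which overlap. DPT and MFAP5 were at 0 in all libraries, DCN and THY1 were below 1 CPM in each, and 0 of 4 tested fibroblast markers were called. The 11 macrophage markers summed to 17.1 to 20.3, 31.5 to 38.5 and 40.3 to 43.6 CPM. Among the 7 tested, 4 were higher than Ad-GFP under Ad-HNF4A and 5 under Ad-K458R, where 3.16% and 3.32% of all tested genes were. The 6 neutrophil markers summed to 7.73 to 9.70, 11.9 to 21.5 and 19.9 to 23.8 CPM, with 2 of 3 tested genes higher in both comparisons and ELANE at 0. The 8 endothelial markers summed to 40.1 to 43.6, 49.8 to 61.3 and 44.4 to 51.3 CPM, with VWF higher in both and KDR at 0. The macrophage, neutrophil and endothelial sums were thus above every control library in both vector groups, as the genes called with both vectors were, and their part in the matrix results was not tested. Mean levels were under 1 CPM for 8 of the 12 fibroblast, 8 of the 11 macrophage, 3 of the 6 neutrophil and 5 of the 8 endothelial markers. Each sum therefore rests mainly on the remaining markers of its list.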

How the data were processed

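Messenger RNA of 9 tumours was sequenced, in 3 groups named by the sample titles. The title of the third Ad-K458R library is spelled Ad-GK458R, and its group was taken from its description. Per the file headers, the values deposited by the authors are read counts and FPKM for each human Ensembl gene. Trimmomatic and the mouse build mm10 are named in the submitters' processing notes, whereas the table holds human genes: 98.5% of its genes occur in GENCODE 29, 94.8% of these at the identical GRCh38 position. The names of the aligner and counter were not given in the sources used here.

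The deposited counts were tested with edgeR 4.0.16 in R 4.3.3 (quasi-likelihood, robust, TMM scaling, edgeR's filter on low counts, 9 libraries in 1 fit, Benjamini-Hochberg over 16697 genes, two-sided, adjusted p under 0.05). Intervals are 95%. A floor is 3 counts per group, and covers counting error only. The deposited FPKM served for levels per length and for tests with limma 3.58.1 on log2(FPKM + 1) and log2(FPKM + 0.1). Other alternatives were DESeq2 1.42.0, limma-voom, 3 scalings, 2 filters, 6-library fits, a replicate block and leaving out each library. Leaving Ad-HNF4A replicate 1 out of the shared spread was added after seeing the data. The test was checked on simulated data, with changes set only in genes averaging above 1 CPM. That check does not cover genes near 0 in the controls. No 2 libraries had identical counts.

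The genes and lists were chosen with earlier results of these data known. Named are all called genes, all tested laminins and TIMPs, the 3 most abundant tested genes of each role, and up to 4 called genes per related list, except 1 gene that is not reported here; other names were chosen after their values were seen.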

Additional observations from a re-analysis of the deposited data

How the results depend on the processing

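The counts of matrix genes called higher or lower stayed within 1.5 times under most alternatives. With no filter on low counts 10 genes were higher with Ad-HNF4A, adding COL16A1, COL9A2, LAMB2 and LAMB3 to the 6, and DESeq2 called 1 gene lower with Ad-K458R than with Ad-HNF4A, COL26A1. The cause was not tested. DESeq2 gave 9 higher with Ad-HNF4A. Leaving out 1 library gave 6 to 8 genes higher than Ad-GFP for Ad-HNF4A, 6 to 7 for Ad-K458R, and 0 in the other counts. COL5A3 was not called with Ad-HNF4A on log2(FPKM + 1) (adjusted p = 0.067). Same-numbered libraries did not deviate together (9 pairs, r from -0.038 to 0.053). A replicate block gave 7 genes higher with each vector and 0 lower, and 0 between the vectors, adding LAMB3 with Ad-HNF4A (adjusted p = 0.03). Over single genes and settings, 2116 kept direction and side of the threshold, 65 lost and 22 gained a call, and 74 uncalled values changed sign. None that was called changed direction. Genes of few control counts, such as MMP20, are limited by depth, since 1 count corresponds to 0.0441 to 0.0626 CPM.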
